A study of Mus musculus with 12 samples.

Results

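The receptors that bind antibody and complement fragments on lymphocytes were followed through the expression of 9 genes, namely Fcgr2b, Fcer2a, Fcgrt, Fcrla, Fcrl1, Fcrl5, Cr2, Cr1l and Cd55. They were chosen by name, and each was found in the table of 41128 genes. Because Cr2 has a pair of rows, the 9 symbols correspond to 10 rows, and all 10 passed the filter on low values. The samples are 12 RNA sequencing libraries of lymphocytes from the spleen of C57BL/6J mice, which were 6 to 8 weeks old, with no treatment and no introduced allele in any group. There are 4 groups of 3 libraries: female and male resting B cells, taken as CD43-, and female and male naive T cells, taken as CD4+CD62L+. Mice were pooled for the replicates, so the spread between libraries is one between pools. The T cells had been enriched on magnetic beads, with antibodies that also remove cells carrying B220, CD11b or CD49b, and then sorted as CD62Lhi, CD44lo and CD25-, after Fc receptors had been blocked with a reagent. B cells lacking CD43 from whole spleen hold follicular and marginal zone cells together. In bulk libraries of this kind, fewer cells of a type and less RNA per cell cannot be told apart.

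Fc receptors bind the constant part of antibodies. Fcgr2b encodes the inhibitory receptor for IgG, which carries an immunoreceptor tyrosine-based inhibitory motif (ITIM) and dampens signals of the B cell receptor. Fcer2a encodes CD23, the low-affinity receptor for IgE and a classical surface marker of follicular B cells, whereas Fcgrt encodes the heavy chain of the neonatal Fc receptor, which binds IgG in acidic endosomes and pairs with beta-2-microglobulin. The Fc receptor-like genes are relatives of these receptors: Fcrl1 and Fcrl5 encode B cell surface proteins and Fcrla encodes a protein that stays inside the B cell. On the complement side, mouse Cr2 encodes both complement receptor 2 (CD21), the part of the B cell coreceptor that binds fragments of C3 and that works beside CD81, and the longer complement receptor 1 (CD35), made from the same gene by alternative splicing. Cr1l (Crry) and Cd55 (decay-accelerating factor) encode membrane regulators that protect a cell from complement deposited on it.

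Values are adjusted TPM, understood here as a length-corrected share of transcripts rescaled between libraries, although the adjustment is not given. On that reading, levels of different genes can be set side by side on this scale. Library totals ran from 561020 to 1453940, read depth is unknown, and each value came with a deposited lower and upper bound whose level is not given. Defining markers matched the labels. Those of B cells (4 genes, among them Cd79a and Ms4a1) summed to 2220 to 2643 in B cells and to 0.896 to 4.91 in T cells. Those of T cells (5 genes, among them Cd3e and Cd4) summed to 1017 to 1194 in T cells and to 9.76 to 14.1 in B cells. The sum in B cells was mostly Lck, at 8.94 to 13.4, while Cd3e and Cd4 were at most 0.0790 and 0.00594 there. Markers of other cell types were also compared, since several of them carry these receptors. Markers of monocytes and macrophages summed to 12.02 to 16.2 in B cells and 1.11 to 5.50 in T cells, and 3 of the 7 were at least 1 in some B cell library (Lyz2, Cd68 and Adgre1), whereas Cd14, Marco and Vsig4 stayed at or under 0.139 in every library. Markers of dendritic cells summed to 3.97 to 10.3 in B cells and 1.87 to 3.34 in T cells, and those of mast cells and basophils to at most 0.0693 in any library. Follicular dendritic cells are rich in complement receptors. Their 4 markers summed to 2.47 to 4.18 in B cells and 6.56 to 10.7 in T cells, mostly Mfge8, while Cxcl13 and Madcam1 were at most 0.0411 and 0.0169 in every library. The remaining marker, Clu, reached 1.22 in B cells (lowest 0.0560), and no T cell library exceeded 0.00348. Platelet markers summed to 4.05 to 16.9 in B cells and 0.344 to 0.612 in T cells. Erythroid markers varied widely among the B cell libraries, from 0.611 to 196. Markers of plasma cells summed to 159 to 243 in B cells and 27.9 to 34.7 in T cells. Of these markers, Jchain was 50.7 to 131 in B cells and Prdm1 at most 0.932. The part of these cell types in the levels of the members was not tested.

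A total of 9 of the 10 rows were higher in B cells than in T cells, and Cr1l was the row that was not. In B cells the members ranged from Cd55, at 342 ± 42.7 adjusted TPM (SD, n = 6), to Fcgrt, at 12.4 ± 2.34. In T cells, Cd55 at 58.1 ± 6.80 and Cr1l at 53.2 ± 5.85 stood above all other members, followed by Fcgrt at 3.02 ± 0.915, and the remaining 7 rows had means from 0.00388 (Fcgr2b) to 0.548 (Fcrl1). B and T cells were compared with limma on log2(adjusted TPM + 1) over all genes tested. In that comparison, 9134 of 12520 genes (73%) passed an adjusted p of 0.05 in either direction, 3926 of them (31.4%) higher in B cells, so passing the threshold is common in these data. Ranges of the cell types were apart for 53.9% of genes over 6 libraries each, and for 24.2% with B cells higher, against the same 9 of 10 member rows. The median difference over the member rows was 6.22 on the log2 scale, and over all genes tested it was -0.088. Exact two-sided permutation of the 6 against 6 libraries gave p = 0.00216 for each of these 9 rows, the smallest value the 924 arrangements can give.

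**Figure D1:**
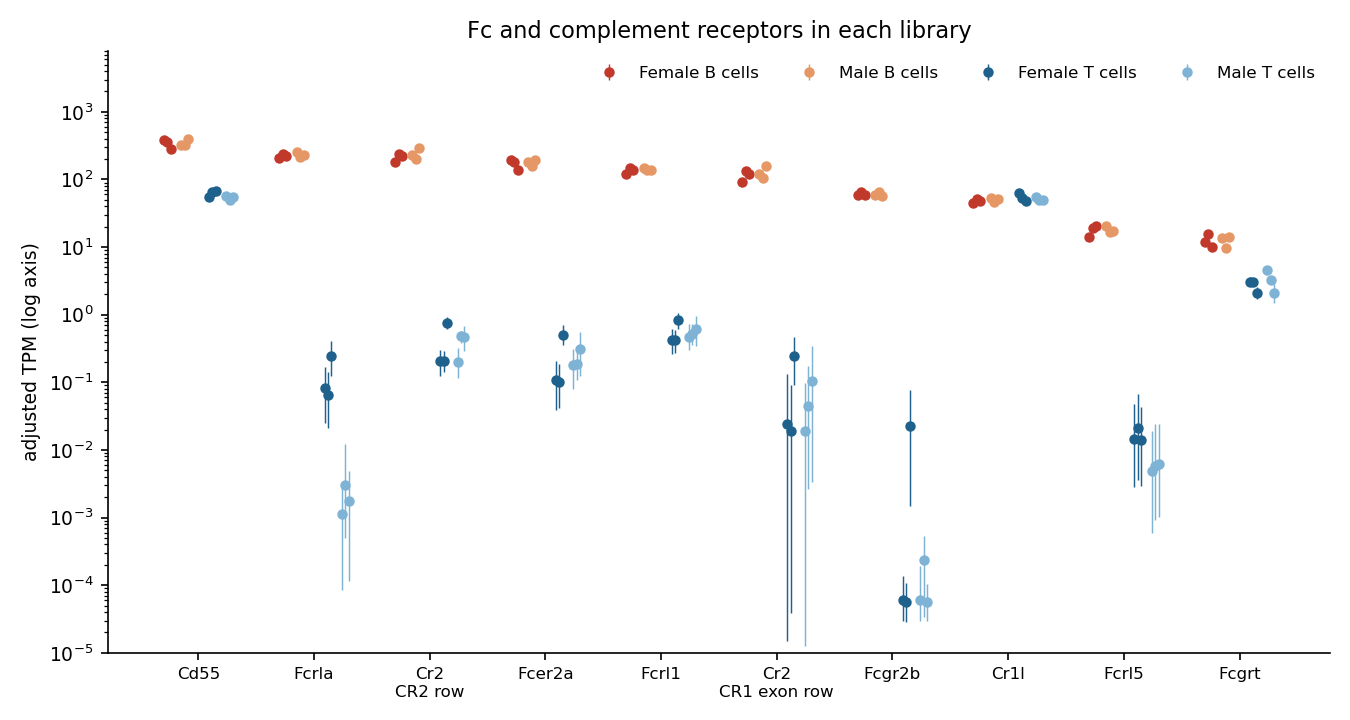
Level of each member row in each of the 12 libraries, in adjusted TPM on a log axis, with the deposited lower and upper bounds as vertical lines and colors for the 4 groups. For 7 rows the T cell points lie under 1 adjusted TPM, Cd55 and Fcgrt are lower but well detected in T cells, and the points of Cr1l overlap between the cell types.

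The order of levels in B cells was Cd55, Fcrla, the CR2 row of Cr2, Fcer2a, Fcrl1, the CR1 exon row of Cr2, Fcgr2b, Cr1l, Fcrl5 and Fcgrt. Cd55 was above Fcrla in 6 of 6 libraries, with means of 342 and 229 and ranges that did not overlap. The next 5 rows down to the CR1 exon row formed a continuous series in which neighbors overlapped, and the means of Fcrla and the CR2 row differed 1.01-fold. Fcgr2b lay 2.00-fold below the CR1 exon row, without overlap. Fcrl5 and Fcgrt, the lowest of the members, had overlapping ranges, although Fcrl5 was the higher in 6 of 6 libraries. In T cells the order of the upper members was Cd55, Cr1l and Fcgrt, of which Cd55 and Cr1l overlapped and Cr1l lay 17.6-fold above Fcgrt.

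Of Fcer2a, Fcgr2b and Fcgrt, the members that bind immunoglobulin, Fcer2a had the highest level in B cells. It was 194, 182 and 136 adjusted TPM in female B cells 1, 2 and 3, and 182, 156 and 196 in male B cells 1, 2 and 3. In female T cells 4, 5 and 6 it was 0.107, 0.101 and 0.508, and in male T cells 4, 5 and 6 it was 0.181, 0.186 and 0.310. The cell types were far apart, female B cell 3 was the lowest B cell library, and female T cell 6 was the highest T cell library. The difference was 7.15 on the log2(adjusted TPM + 1) scale (SE 0.11, adjusted p = 4.94e-15 by limma). The gene lies on chromosome 8, 3681737 to 3694175, minus strand, of GRCm38.

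Fcgr2b was the steadiest member among the B cell libraries, with a coefficient of variation of 5.62%. Its values were 58.7, 65.3 and 58.7 in the female B cell libraries and 58.6, 64.7 and 57.8 in the male ones. In T cells it was 5.99e-05, 5.63e-05 and 0.0228 in the female libraries and 6.01e-05, 0.000236 and 5.63e-05 in the male ones, so 5 of 6 T cell libraries were at the bottom of the scale and female T cell 6 stood above them. The log2 difference was 5.94 (SE 0.05, adjusted p = 7.84e-17 by limma), and with a pseudocount of 1 such a difference is set almost wholly by the B cell level. With a pseudocount of 0.1 it was 9.19. Fcgr2b shares 4.15% of its distinct 31-base words with Fcgr3, an activating IgG receptor, and reads of such stretches could be assigned to either gene. Fcgr3 went the other way, from 0.160 to 0.386 in B cells and from 1.72 to 2.21 in T cells.

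Fcgrt was the member with the lowest level in B cells and was detected in both cell types. It was 11.7, 15.6 and 10.1 in the female and 13.5, 9.60 and 14.0 in the male B cell libraries, and 3.05, 3.04 and 2.10 in the female and 4.58, 3.26 and 2.09 in the male T cell libraries. No T cell value reached the lowest B cell value. The log2 difference was 1.75 (SE 0.15, adjusted p = 3.37e-07 by limma), the smallest among the 9 rows that passed. B2m, which encodes the partner chain beta-2-microglobulin, was lower in B cells, with 1589 ± 310 against 2639 ± 333 (SD, n = 6) and a log2 difference of -0.74 (adjusted p = 0.000984). It no longer passed when each library was rescaled to the same total (-0.36, adjusted p = 0.269). The rescaled limma fit gave p-values of another order, with an adjusted p of 3.09e-245 for Fcgr2b against 7.84e-17 as deposited. Its calls, here and below, therefore do not compare directly with those of the main fit.

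All 3 Fc receptor-like members were higher in B cells. Fcrla was 208, 241 and 223 in the female and 254, 218 and 227 in the male B cell libraries. In T cells it was 0.0815, 0.0657 and 0.244 in females and 0.00114, 0.00303 and 0.00177 in males. With a log2 difference of 7.75 (SE 0.06, adjusted p = 4.26e-17), it had the largest difference of the members and stood at the 99.9th percentile of all tested genes by signed difference. Fcrl1 was 120, 148 and 140 in the female and 147.7, 136 and 137 in the male B cell libraries, and from 0.420 to 0.836 in T cells (log2 difference 6.49, SE 0.08, adjusted p = 6.36e-16). Fcrl5 was lower throughout, at 14.0, 19.3 and 20.3 in the female and 20.8, 16.8 and 17.3 in the male B cell libraries. Its T cell values, 0.00486 to 0.0208, gave a log2 difference of 4.23 (SE 0.09, adjusted p = 1.23e-13), which was 7.34 with a pseudocount of 0.1. Within B cells, Fcrla exceeded Fcrl1 and Fcrl1 exceeded Fcrl5 in each of the 6 libraries.

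Cr2, on chromosome 1 from 195136811 to 195176716 on the minus strand, is split between a pair of rows in the deposited table. Each row holds 1 transcript. The first, here called the CR2 row, is a transcript of 19 exons and 6207 bases. The second, here called the CR1 exon row, holds 6 exons and 1044 bases, from 195165745 to 195171168, and GENCODE M21 places it inside the same gene, between exon 1 and exon 2 of the CR2 transcript. The rows share 0 exonic bases. A long transcript of 25 exons in M21 joins exon 1, then 7 extra exons, then the exons of the CR2 transcript from exon 2, and it contains 99.6% of the bases of the CR1 exon row. As annotated it ends within exon 18 and lacks exon 19, which holds 2988 of the 6207 bases of the CR2 row. Reads from the shared exons of the CR2 row can therefore come from either form. The CR1 exon row covers exons that the CR2 transcript skips. The junctions that tell the forms apart are given here as 30 bases on each side, with the bases after the junction in capitals, on the transcript strand and taken from the M21 transcripts.
Exon 1 to exon 2, CR2 transcript: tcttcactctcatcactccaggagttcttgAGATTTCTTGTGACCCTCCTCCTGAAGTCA
Exon 1 to the first extra exon, long transcript: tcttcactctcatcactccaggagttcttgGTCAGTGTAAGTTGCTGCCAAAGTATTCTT
Last extra exon to exon 2, long transcript: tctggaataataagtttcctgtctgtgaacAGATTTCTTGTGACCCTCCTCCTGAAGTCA
The exon 1 bases are the same in the first and the second line, and the exon 2 bases in the first and the third. Counts over these junctions are not part of the table, and only the exon levels could be compared.

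The CR2 row was 179, 238 and 219 in the female and 229, 200 and 292 in the male B cell libraries. In T cells it was 0.204, 0.208 and 0.764 in the females and 0.202, 0.485 and 0.462 in the males. The log2 difference was 7.36 (SE 0.12, adjusted p = 1.44e-14 by limma). For the CR1 exon row, the B cell values were 92.9, 133 and 121 in females and 122, 103 and 156 in males, and those of T cells were between 0.0189 and 0.243, with a log2 difference of 6.82 (SE 0.11, adjusted p = 1.02e-14). Among B cells, male B cell 3 was the highest and female B cell 1 the lowest library for both rows.

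The ratio of the rows varied less among the B cell libraries than their levels. Both rows are of the same gene in the same library, so any scaling or change of level that they share cancels in the ratio. A smaller spread of the ratio could therefore be foreseen. The highest B cell library was 1.63-fold above the lowest for the CR2 row and 1.68-fold for the CR1 exon row. Yet the CR1 exon row was 51.8%, 55.8% and 55.3% of the CR2 row in female B cells 1, 2 and 3, and 53.3%, 51.6% and 53.6% in male B cells 1, 2 and 3. The mean was 53.6% ± 1.75 (SD, n = 6). Female and male B cells had means of 54.3% ± 2.22 and 52.8% ± 1.06 (SD, n = 3 each), with overlapping values. From the deposited bounds, the ratio in a library lay within 47.8% to 59.3% over the 6 libraries. RNA that is not spliced would also cover the CR1 exons, and its part in the ratio was not tested. In T cells both rows were under 1 adjusted TPM, and the bounds of the ratio there were too wide for a comparison.

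**Figure D2:**
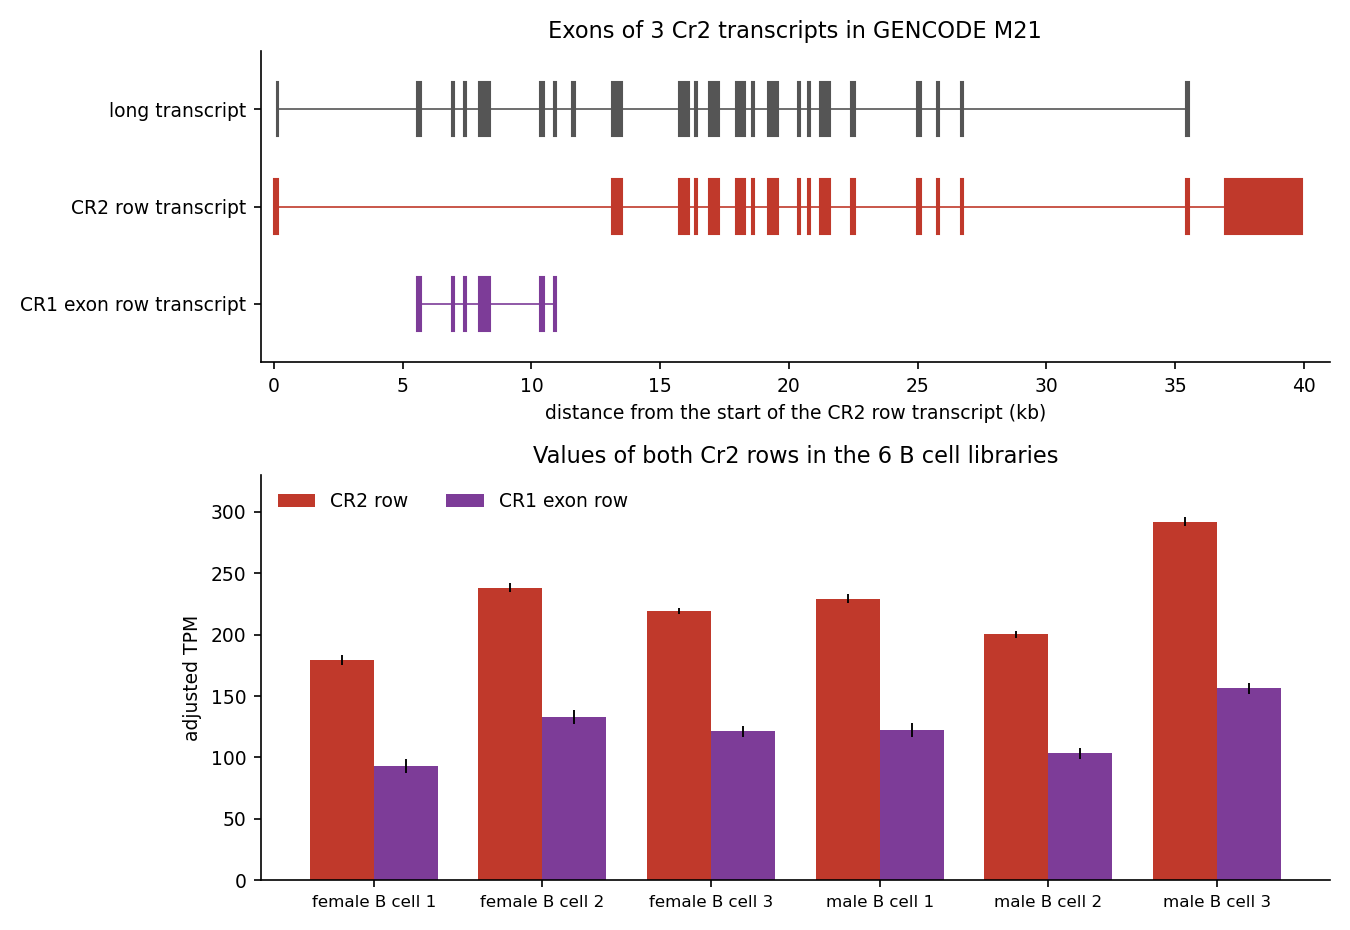
Top, exons (boxes) of 3 Cr2 transcripts against the distance from the start of the CR2 row transcript in kb. The 6 exons of the CR1 exon row lie 5547 to 10970 bases from the start, before exon 2 of the CR2 row at 13128 bases. Bottom, adjusted TPM of both rows in the 6 B cell libraries with the deposited bounds as error bars, where the CR1 exon row is 51.6% to 55.8% of the CR2 row.

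Of the regulators of complement, Cd55 was higher in B cells and Cr1l did not pass the threshold. Cd55 (chromosome 1, 130439027 to 130462744) was 377, 358 and 279 in the female and 320, 322 and 395 in the male B cell libraries. In T cells it was 55.0, 64.4 and 68.1 in females and 56.9, 50.1 and 54.1 in males. B cells were 5.79-fold higher on the scale with the pseudocount (log2 difference 2.53, SE 0.09, adjusted p = 3.08e-11 by limma), and no library overlapped. Cd55 shares 11.2% of its 31-base words with Cd55b, a nearby duplicate, but Cd55b was at most 0.727 in any library.

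Cr1l (chromosome 1, 195097382 to 195131586) was 44.1, 51.5 and 48.2 in the female and 53.4, 45.7 and 51.0 in the male B cell libraries. It was 63.8, 53.3 and 47.2 in the female and 54.8, 50.0 and 50.1 in the male T cell libraries. The groups overlapped, and the log2 difference was -0.11 (95% interval -0.28 to 0.05, adjusted p = 0.19 by limma; exact permutation p = 0.154). Its direction followed the scaling, at 0.26 (adjusted p = 0.257) with each library rescaled to a total of 1000000 and -0.029 (adjusted p = 0.708) with median-ratio scaling, while the median over all genes moved from -0.088 to 0.26 with the first of these. Cr1l shares 39.3% of its 31-base words with a pseudogene, Crry-ps, so its level is the least certain of the members in that respect, although the row of the pseudogene held only 0.227 to 0.601.

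Of the 9 members, 6 lie in pairs of near neighbors in the genome. Cr1l lies 5224 bases from Cr2 and Fcrla 31033 bases from Fcgr2b on chromosome 1, and Fcrl1 lies 32838 bases from Fcrl5 on chromosome 3. Cr1l and Cr2 are thus direct neighbors on the same strand, and 1 of them was near equal in level between the cell types while the other was nearly absent from T cells. The 250 bases before the RefSeq start of 4 members are shown for this reason, from RefSeq on GRCm38.p6, with Cr2 beside its neighbor Cr1l and a pair of Fc receptor-like genes. All 9 members matched an entry of that table. Capitals mark matches, on either strand, to letters associated with factors of B cells and their relatives, namely CCCNNGGG for EBF1, GAGGAA for PU.1, TGGGAA for RBPJ, the nuclear partner of Notch, and CAGGTG for E2A. The octamer ATGCAAAT was searched as well. None of these letters overlapped another match in the windows shown.
Cr2, chr1:195176720-195176969, minus strand: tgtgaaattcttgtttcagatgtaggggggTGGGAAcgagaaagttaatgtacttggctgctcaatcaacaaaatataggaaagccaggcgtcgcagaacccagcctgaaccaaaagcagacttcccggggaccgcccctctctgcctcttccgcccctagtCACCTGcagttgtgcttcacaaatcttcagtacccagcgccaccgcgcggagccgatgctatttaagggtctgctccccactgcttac
Cr1l, chr1:195131571-195131820, minus strand: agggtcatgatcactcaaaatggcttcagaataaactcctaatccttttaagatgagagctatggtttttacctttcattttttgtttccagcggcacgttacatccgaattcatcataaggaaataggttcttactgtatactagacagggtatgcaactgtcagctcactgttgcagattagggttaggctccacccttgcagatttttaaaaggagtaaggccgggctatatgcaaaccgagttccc
Fcrla, chr1:170927584-170927833, minus strand: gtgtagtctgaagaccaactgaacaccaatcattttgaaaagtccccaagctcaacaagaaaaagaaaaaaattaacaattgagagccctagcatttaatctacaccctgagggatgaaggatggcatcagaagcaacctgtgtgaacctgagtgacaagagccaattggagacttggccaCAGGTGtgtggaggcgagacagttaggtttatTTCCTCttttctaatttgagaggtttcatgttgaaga
Fcrl1, chr3:87376137-87376386, plus strand: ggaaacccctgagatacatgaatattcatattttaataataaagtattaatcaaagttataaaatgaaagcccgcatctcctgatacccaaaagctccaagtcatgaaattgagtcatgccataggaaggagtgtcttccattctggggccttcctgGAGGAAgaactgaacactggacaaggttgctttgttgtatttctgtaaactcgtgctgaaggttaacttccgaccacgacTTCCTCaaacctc
Cr2 held TGGGAA and the reverse complement of CAGGTG, Fcrla held CAGGTG and 1 match to GAGGAA, Fcrl1 held 2 matches to GAGGAA, and Cr1l held none of the letters. Over the 9 members, CCCNNGGG was found in 2 windows (Fcgrt and Cd55), GAGGAA in 2, CAGGTG in 2, TGGGAA in 1 and ATGCAAAT in 0. Of all 32851 windows, 11.8% held CCCNNGGG, 23.3% held GAGGAA, 17.2% held CAGGTG, 21.6% held TGGGAA and 1.6% held ATGCAAAT. These counts describe the letters in the windows and nothing about binding.

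Other genes of the same families were examined by role. Of 13 further Fc receptors and chains, 4 passed the filter on low values. Fcmr, the receptor for IgM, was the highest of all, with 371 to 465 over the B cell libraries and no T cell library above 0.851 (log2 difference 8.45, adjusted p = 2.24e-15 by limma), and thus above each member in B cells by its mean of 413. Fcamr, a receptor for IgA and IgM, was 1.55 ± 0.406 in B cells and 0.00639 ± 0.00369 in T cells (1.33). Fcgr3 (-1.22) and the cytosolic antibody receptor Trim21 (-0.70) were higher in T cells, of which Trim21 did not pass with each library rescaled (-0.33, adjusted p = 0.138). Fcgr3 is also carried by natural killer cells, whose 4 markers summed to 12.1 to 18.0 in T cells and 1.23 to 2.61 in B cells. That sum was mostly Prf1, while Ncr1 and Klrb1c were at most 0.0137 and 0.0415 in T cells. The activating receptors Fcgr1 and Fcgr4 and the chain Fcer1g, which they need for signaling, had B cell means of 0.0427, 0.197 and 0.854, and their T cell means did not exceed 0.111. Of Fcgr1, Fcgr2b, Fcgr3 and Fcgr4, Fcgr2b was thus the one whose B cell mean exceeded 1.

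Among 15 further complement receptors and regulators, 6 passed the filter, of which 2 were higher in B cells, 1 was higher in T cells and 3 did not pass the threshold. Cd93 (3.19) and Itgax (1.53) were higher in B cells, the former at 8.48 ± 1.78 and the latter, also a marker of dendritic cells, at 2.48 ± 0.967. Itgb2, the beta chain shared by the leukocyte integrins, was higher in T cells, at 135 ± 13.9 against 38.5 ± 3.81 (-1.79). Cd46, C1qbp and Itgam did not pass (adjusted p = 0.474, 0.25 and 0.322), but Cd46 did with each library rescaled (0.39, adjusted p = 0.0432). Of 12 complement components, only Cfp, which encodes properdin, passed the filter, with 19.4 ± 3.43 in B cells and 1.10 ± 0.469 in T cells (3.29, adjusted p = 1.11e-10). C3, the source of the ligands of Cr2, averaged 0.170 in B cells and 0.0264 in T cells.

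The partners of the members and the signaling proteins below them were measured together. All 13 genes of this list passed the filter, 12 were higher in B cells and B2m was higher in T cells. Cd81, a coreceptor partner of Cr2, was higher in B cells at 94.5 ± 6.57 against 12.2 ± 1.91 (2.87). Lyn (7.29), the kinase that phosphorylates ITIMs, and the downstream kinases and adaptors Syk (7.77), Btk (6.19), Blnk (6.88) and Dok3 (5.93) had group means of at least 76.9 in B cells and of no more than 0.403 in T cells. The phosphatases recruited to ITIMs were found in both cell types, with Inpp5d at 90.4 against 35.8 (1.31), Ptpn6 at 352 against 97.3 (1.86) and Inppl1 at 4.35 against 0.567 (1.77). Dok1 (0.91) was likewise higher in B cells. Notch2, a receptor required for marginal zone B cells, was 87.7 ± 4.75 against 11.9 ± 0.863 (2.78), and Adam10, the protease that sheds CD23, was 47.2 ± 3.31 against 40.8 ± 2.99 (0.20, adjusted p = 0.0125), with libraries that overlapped.

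Of 9 other ITIM receptors found in the table, 8 passed the filter. Cd22 (8.37), Siglecg (6.98), Pirb (4.55), Cd72 (4.42) and Btla (2.18) were higher in B cells, and Cd5 (-6.53) and Lair1 (-1.10) were higher in T cells. Pecam1, at 92.0 ± 7.04 and 91.4 ± 3.93, did not pass the threshold (0.0079, adjusted p = 0.905). Among these inhibitory receptors, Cd22 had the highest B cell mean at 353 ± 12.6, against 60.6 ± 3.41 for Fcgr2b.

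**Figure D3:**
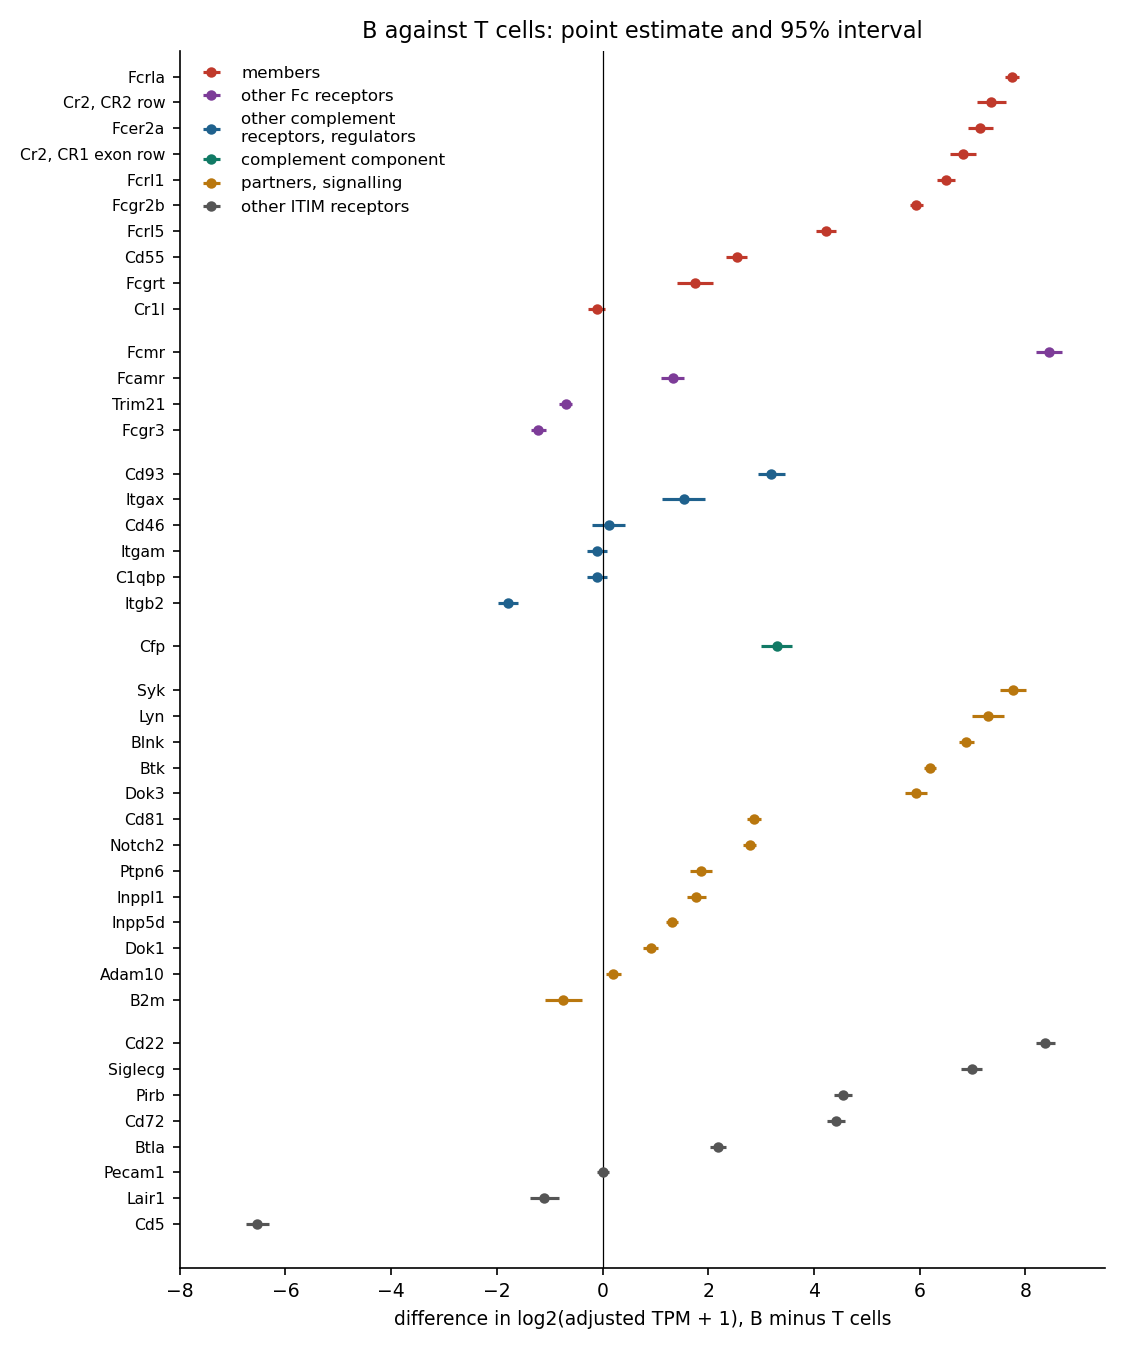
Difference in log2(adjusted TPM + 1) between B and T cells (points, right of 0 is higher in B cells) with 95% intervals from limma, for the 10 member rows and the genes of 5 further lists that passed the filter. Cr1l, Cd46, Itgam, C1qbp and Pecam1 have intervals that include 0.

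Variation among the B cell libraries did not run in parallel for all members. Fcer2a was highest in male B cell 3 and female B cell 1, at 1.13 and 1.11 times its B cell mean, and lowest in female B cell 3 at 0.779. Cd55 had the same extremes, at 1.16 and 1.10 against 0.817. The CR2 row was also high in male B cell 3, at 1.29, but low in female B cell 1, at 0.793. Fcrl5, Fcrl1 and Fcrla were lowest in female B cell 1 as well, at 0.774, 0.869 and 0.910. That library also had the lowest Cd9, S1pr3 and Dtx1 among the marginal zone markers, at 0.610, 0.663 and 0.790, but not the lowest Cd1d1 or Plac8 of the same list. It was lowest for genes outside that list too, namely Cr1l, at 0.901, and the partner and signaling genes Lyn, Cd81, Inpp5d, Ptpn6 and Dok1. For the other partner and signaling genes it was not the lowest. Its largest row held 32.2% of its total, against at most 16.1% in the other B cell libraries. Whether the share of marginal zone cells had a part in this was not tested.

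**Figure D4:**
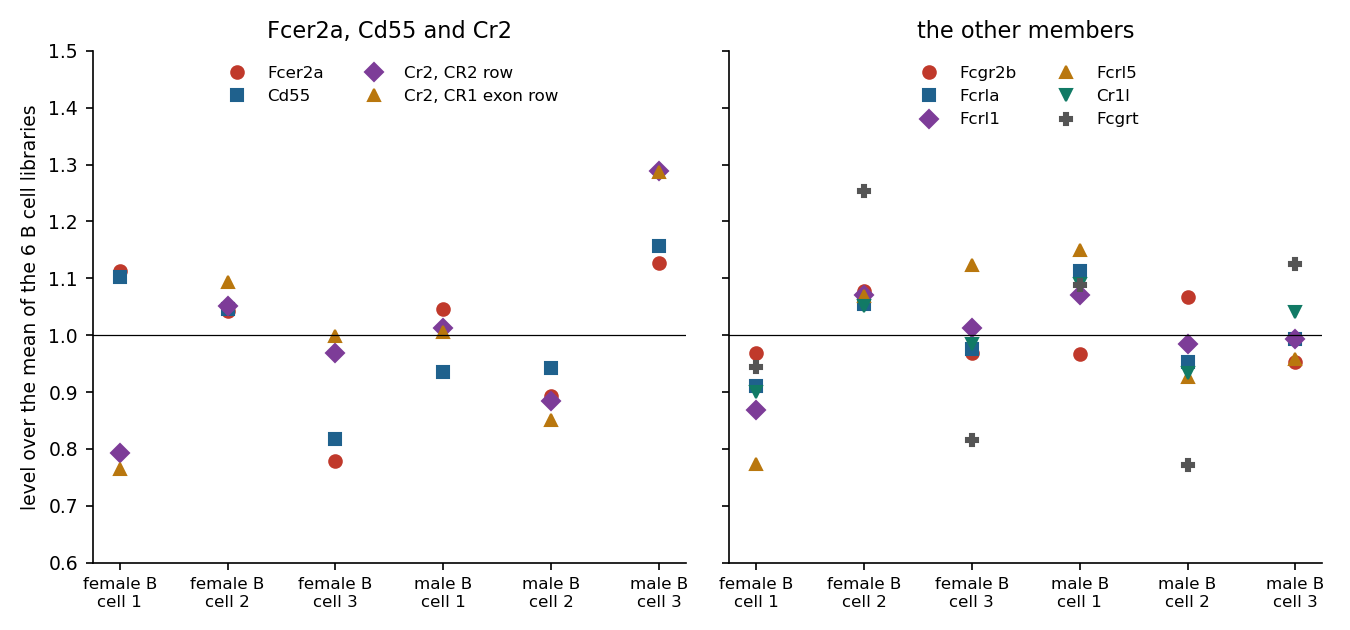
Level of each member row in the 6 B cell libraries divided by its mean over these libraries (vertical axis, 1 is the mean). Left, Fcer2a and Cd55 are both low in female B cell 3, and the Cr2 rows lie together in each library. Right, Fcgr2b stays between 0.953 and 1.08.

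Deviations from the 4 group means, which share library and scaling, were also correlated over all 12 libraries, in log2(adjusted TPM + 1). These include the T cell libraries, where Fcer2a, Fcrl1, Fcrla and both Cr2 rows were under 1 adjusted TPM. Female T cell 6 was the highest of the T cell libraries for each of these rows. The r values are therefore not a measure of variation among B cells alone, and r within B cells was not computed. The rows of Cr2 had r = 0.90 with each other, Fcer2a had r = 0.79 with Cd55 and 0.52 with the CR2 row, and the CR2 row had 0.76 with Fcrl1 and 0.64 with Fcrla. Many other genes had a higher r. By rank among the genes tested, Cd55 was 165th and the CR2 row 1316th for Fcer2a. For the CR2 row, the CR1 exon row was 7th, Fcrl1 149th and Fcrla 603rd. Cr1l had r = -0.34 with Fcer2a and -0.32 with Cd55. The 3 genes whose deviations were most like a member, out of 12520, were Gltscr1l, Setd1a and Wasf2 for Fcer2a (r = 0.95 to 0.97), Fgr, Lmo2 and Ahcyl1 for the CR2 row (0.93 to 0.96), Ogfod1, Igkv8-18 and Slc25a10 for Fcgr2b (0.93 to 0.95), and RP23-430H22.3, Gm26347 and B3glct for Cd55 (0.93). By level over the 12 libraries, which the gap between the cell types dominates, the closest were Tmem163, Gm19980 and March1 for Fcer2a, the CR1 exon row, Pik3ap1 and Sorl1 for the CR2 row, and Snx8, Blk and Tnfrsf13c for Fcgr2b, each with r of 1.00. For Cd55 they were Cep128 (r = 0.997), Arhgap17 and Ago4.

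In T cells the low levels of the members were set beside those of B cell genes. As a percentage of the B cell mean, the T cell libraries held 0.0578% to 0.292% for Fcer2a, 0.0891% to 0.338% for the CR2 row, 0.304% to 0.605% for Fcrl1 and 9.28e-05% to 0.0377% for Fcgr2b. For the B cell genes Cd79a, Cd79b and Ms4a1 the medians over the 6 libraries were 0.172%, 0.0630% and 0.0485%, whereas for Cd22 and Pax5 they were far lower, at 0.00061% and 0.000395%, so these genes did not share a common percentage. Female T cell 6 had the highest percentage for Fcer2a, both Cr2 rows, Fcgr2b, Fcrla and Fcrl1, and also for each of the 5 B cell genes compared (Cd79a, Cd79b, Ms4a1, Pax5 and Cd22). It held 0.173% for Ms4a1 and 0.205% for Cd79b, and had the highest Lyz2, a macrophage marker, among the T cell libraries at 2.52. Without this library the log2 differences between B and T cells of the 10 member rows kept their sign, and 9 rows passed as before. The part of B cell RNA in these low T cell levels was not tested. The percentages of the remaining members were 14.7% to 19.9% for Cd55, 16.9% to 36.8% for Fcgrt and 96.4% to 130% for Cr1l, and the highest percentage of any of the 5 B cell genes was 0.322%.

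**Figure D5:**
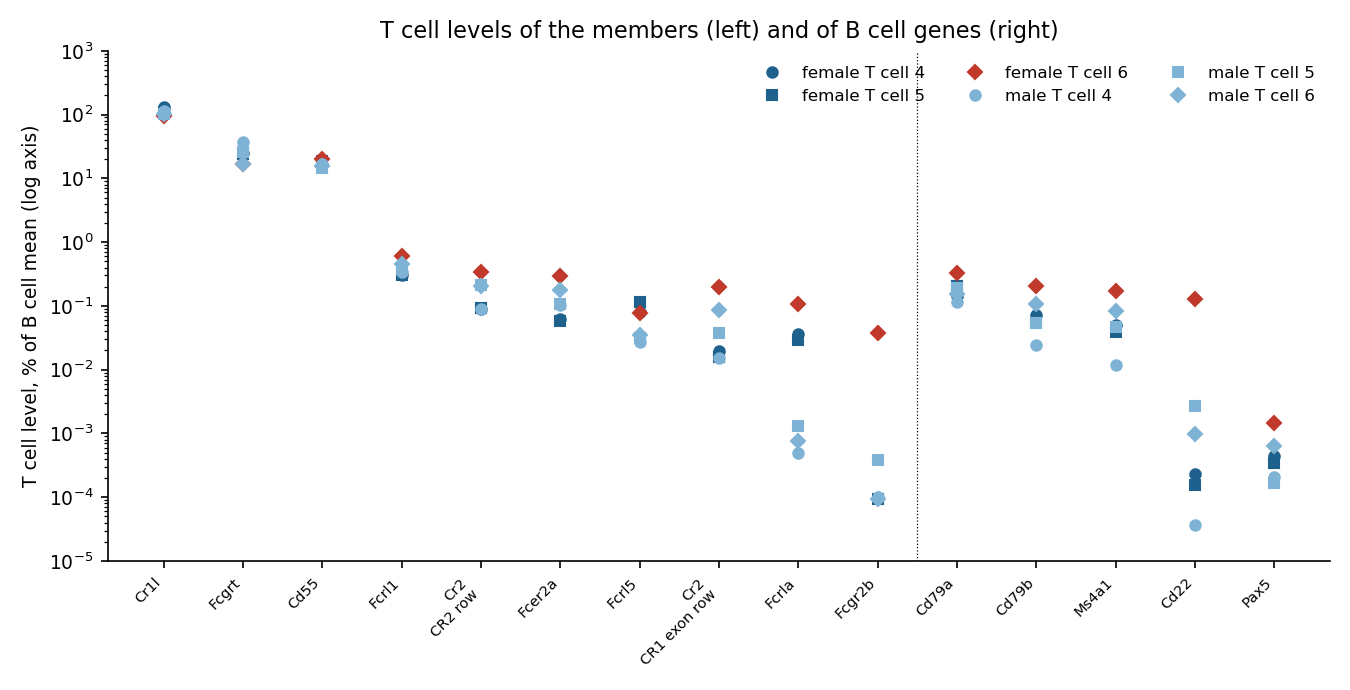
Level in each of the 6 T cell libraries as a percentage of the B cell mean, on a log axis, for the member rows (left of the dotted line) and 5 B cell genes (right). Female T cell 6 (red diamonds) is highest for each of the B cell genes and for 6 of the member rows among the 7 that are nearly absent from T cells, and Cr1l, Fcgrt and Cd55 lie above 10%.

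The effect of sex was examined separately in B cells and in T cells, since the series holds both sexes. No member row passed the threshold in either. In B cells, 18 of 12520 genes (0.144%) passed by limma, with 373 at an unadjusted p under 0.05. The log2 differences of the members there, female minus male, ran from -0.17 for the CR2 row (95% interval -0.55 to 0.21) to 0.013 for Fcgr2b (-0.15 to 0.18). In T cells, 13 genes (0.104%) passed, with 319 at an unadjusted p under 0.05. The members there ran from -0.18 for Fcgrt (-0.65 to 0.30) to 0.21 for Cd55 (-0.07 to 0.49). The difference between the sex effects of B and T cells passed for 0 genes (0%) by limma, with 295 at an unadjusted p under 0.05, and for 0 members. Each of these unadjusted counts was below a share of 0.05 of the 12520 genes, the share foreseen if no gene differed. Female and male libraries did not overlap for 7.2% of genes in B cells and for 0 of the 10 member rows. In T cells they did not overlap for 8.49% of genes and for 2 member rows, Fcrla and Fcrl5, both higher in females and both below 1 adjusted TPM. For Fcrla the deposited intervals were apart too, since the lowest female bound was 0.0211 and the highest male bound 0.0123, and on the scale with the pseudocount its sex difference in T cells was 0.17 (SE 0.09, unadjusted p = 0.0742 and adjusted p = 1 by limma). With a pseudocount of 0.1 the same difference of Fcrla was 1.10 (adjusted p = 0.0998). For Fcrl5 the intervals overlapped. With 3 libraries of each sex, the intervals reached 0.55 in B cells and 0.65 in T cells on the log2 scale for some members, so differences of such sizes remain possible.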

How the data were processed

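RNA was sequenced from 12 libraries in 4 groups of 3, which were taken from the labels. Per the labels, rRNA-depleted, strand-specific libraries were spiked with ERCC transcripts (not analysed here), and the submitters' processing notes list Trim Galore, FastQC, STAR and the build mm10. Some label fields give genomic DNA, but the series and protocol describe RNA. Values in the 1 deposited table are a signal that the authors named adjusted TPM, understood here as TPM rescaled between libraries, with a lower and an upper bound for each value. The quantifier, the adjustment and the level of the bounds are not given in the sources used here. No value is 0, no read counts were used, and depth is unknown, so precision was read from the bounds and from the spread between libraries.

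Differences were taken on log2(adjusted TPM + 1), a pseudocount that understates the change of low genes. The 12520 genes that reached 1 adjusted TPM in 3 or more libraries were fitted by limma 3.58.1 in R 4.3.3, with a coefficient for each of the 4 groups and its trend option. Adjusted p-values are Benjamini-Hochberg over all genes tested, with a threshold of 0.05. The fits were tested on simulated data. Intervals are 95% intervals of limma. Single member rows were also compared by exact permutation over samples, in R as well. Levels, ratios and sequence matches were computed in Python 3.11.15 (numpy 2.4.6, pandas 2.3.3, plots with matplotlib 3.10.9). The labels do not tie libraries to single mice, and p-values measure the spread between pools. Replicate numbers were checked for pairing: deviations of same-numbered female and male libraries correlated at -0.169, -0.0382 and -0.337 in B cells, which are not paired, and at 0.721, 0.548 and 0.521 in T cells, whose numbers thus pair the libraries by this correlation alone, since no label says what the number marks. The sex differences given are from the fit without the pairing, and the fit with it is an alternative.

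Coordinates come from GENCODE M21 (GRCm38, the same build as mm10), to which 97.87% of identifiers matched. The CR1 exon row was placed by its transcript identifier. Shared sequence was measured as the share of distinct words of 31 bases of the transcripts of a row that occur in transcripts of another gene. Promoter windows are from RefSeq. Alternatives were the pseudocount, the filter, the scaling, the trend, leaving out each library, the replicate block, single cell types and the deposited bounds. Named genes are the members, the genes of each related list past the threshold with the 3 largest changes in each direction or a group mean of at least 10, and the 3 genes most like Fcer2a, Cr2, Fcgr2b and Cd55. Genes of those lists that fall outside this rule (Fcgr1, Fcgr4, Fcer1g, C3, Cd46, C1qbp, Itgam, Inppl1, Pecam1, Cd55b and single marker genes) were named after their values were seen. Marker lists are given by their sums, but those of follicular, marginal zone and B-1 B cells and of neutrophils are not reported here. A further partner gene is not reported here. The members and lists were chosen with earlier results of these data known.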

Additional observations from a re-analysis of the deposited data

Results flagged for a closer look

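Among the 6 T cell libraries, female T cell 6 stood apart from the others for Fcgr2b, at 0.0228 adjusted TPM against at most 0.000236 in the other 5, and for Fcrla, at 0.244 against at most 0.0815. In both cases the gap to the nearest library, as a share of the range of the 6 values, exceeded Dixon's 95% limit for 6 samples. For normally distributed values, chance places about 1 in 20 such groups past this limit, and 20 groups of 6 were examined (10 rows in 2 cell types). These T cell values lie near 0 and are skewed, so that rate may not hold for them. For Fcrla the deposited bounds of female T cell 6 (0.123 to 0.408) overlapped those of female T cell 4 (0.0252 to 0.171). Female T cell 6 also had the highest Cd79a, Cd79b, Ms4a1, Pax5 and Cd22 among T cells, and the part of this in both values was not tested.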

How the results depend on the processing

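Between B and T cells the 9 member rows passed the threshold under each alternative run, including each of the 12 omissions of a library, and their directions held. Their sizes depended on the pseudocount where T cell levels were near 0: with 0.1 in place of 1, Fcrl5 moved from 4.23 to 7.34 and Fcgr2b from 5.94 to 9.19. The number of all genes past the threshold ran from 8717 to 9193 with a library left out and was 24591 with no filter. Cr1l, which did not pass, turned to 0.26 with each library rescaled to a total of 1000000 and to 0.032 with the deposited bounds nearest to each other. Of all calls, 43% were toward B cells as deposited, 70.8% rescaled and 50.1% with median-ratio scaling. The totals used for rescaling depended on single rows, since the largest row held 37.4% of male T cell 6 and 32.2% of female B cell 1. The p-values of the rescaled fit were also of another order, so its calls and counts do not compare directly with the others.

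No member passed in a sex comparison under any alternative run. The count of all genes past the threshold for sex within B cells moved from 18 to 10985 with no filter, 36 rescaled and 5 with B cell libraries alone. Within T cells it moved from 13 to 24 with a pseudocount of 0.1, 10607 with no filter and 23 rescaled. For the difference between sex effects it moved from 0 to 1 with that pseudocount, 11201 with no filter, 16 rescaled, 3 with no trend, and 0 to 3 with a library left out (3 without female T cell 6). The causes were not tested.

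Some sex differences of members, none past the threshold, changed sign. With a pseudocount of 0.1, Fcer2a in T cells turned to -0.13, and Fcrla there kept its sign but moved from 0.17 to 1.10 (adjusted p = 0.0998). Rescaled, Fcgr2b and Fcgrt in B cells turned to -0.056 and -0.056, and Fcgrt and the CR2 row in T cells to 0.016 and 0.081. Leaving out 1 library at a time, differences within B cells ran from -0.12 to 0.094 for Cd55, -0.27 to 0.025 for the CR1 exon row, -0.17 to 0.082 for Fcer2a, -0.038 to 0.063 for Fcgr2b, -0.15 to 0.14 for Fcgrt, -0.11 to 0.036 for Fcrl1, -0.14 to 0.12 for Fcrl5 and -0.11 to 0.0079 for Fcrla. Within T cells they ran from -0.0395 to 0.17 for Cr1l, -0.046 to 0.10 for the CR1 exon row, -0.19 to 0.085 for the CR2 row, -0.15 to 0.078 for Fcer2a, -8.6e-05 to 0.016 for Fcgr2b, -0.40 to 0.029 for Fcgrt and -0.11 to 0.075 for Fcrl1.

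With the replicate block, 14 genes in B cells and 10 in T cells passed for sex, and 0 members, so it changed no call of a member. No paired analysis was possible for B against T cells because the numbers 1 to 3 and 4 to 6 are not shared. Depth is unknown, so the T cell levels under 1 adjusted TPM are limited by their wide bounds.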
